A study of Mus musculus with 51 samples.

Results

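*Olfr203*, *Olfr204*, *Olfr205* and *Olfr206* are 4 adjacent olfactory receptor (OR) genes of mouse chromosome 16, and they were selected on the response to the odorant DHB in these libraries, as the receptors raised by it together with their adjoining paralog. Matching the 4 symbols in the count tables found each of them, 4 of 1117 intact OR genes. The values are phosphorylated S6 ribosome capture followed by RNA-Seq (pS6-IP-Seq) of the whole olfactory mucosa of single wild-type C57BL/6J mice, both sexes, about 3 weeks old. A total of 51 libraries comprised 30 from mice exposed to an odorant, in 10 groups of 3, and 21 from control mice, in 7 groups of 3. Each exposure lasted 1 hr and used 10 μL of stimulus, odorants were diluted in water, or in ethanol for MTMT and CPD, and control mice received water or ethanol, without the sample labels saying which. The odor groups were 77% DHB, SBT at 0.01%, 1% and 100%, MTMT at 100 μM and 10 mM, 100% (E)-β-farnesene, 1% 2,5-DMP (2,5-dimethylpyrazine), 1% β-caryophyllene and 100 mM CPD (cyclopentadecanone, a macrocyclic musk). One set of 3 control mice served 100 μM MTMT, 2,5-DMP and (E)-β-farnesene alike, and another set of 3 served the 1% and the 100% dose of SBT. Since MTMT was diluted in ethanol and 2,5-DMP in water, the first set cannot match the diluent of both. Where odor and control mice differ in diluent, odor and diluent cannot be told apart. DHB (dehydro-exo-brevicomin), SBT (sec-butyl-dihydrothiazole) and MTMT ((methylthio)methanethiol) are volatiles of male mouse urine.

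Each mature olfactory sensory neuron (OSN) expresses 1 OR gene, and the OR is a G protein-coupled receptor that determines which odorants the neuron detects. Activity leads to phosphorylation of ribosomal protein S6, so that ribosomes captured with a pS6 antibody carry more mRNA from recently active neurons, and the transcript of an activated OR takes a larger share of the reads. OR genes arose by repeated local duplication, and neighbouring copies are therefore often close in sequence. More active neurons of one type and more captured RNA per neuron cannot be told apart in these bulk samples. Reads assigned to OR genes numbered 27301 to 160001 per library, with a median of 93870. Shares are given as the percentage that a gene's reads make up among the OR reads of its library, and 95% Wilson intervals on the share in a single mouse cover counting error only. Fold changes are edgeR estimates after its scaling of the libraries (TMM factors), so they need not equal the ratio of the listed shares. The tables hold OR genes alone, so markers of other cell types of the mucosa were not analysed here.

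In GRCm38, *Olfr203* (ENSMUSG00000068182) spans chr16:59298881-59304413 on the plus strand. *Olfr204* (ENSMUSG00000095928, chr16:59310206-59318248), *Olfr205* (ENSMUSG00000094422, chr16:59328005-59331138) and *Olfr206* (ENSMUSG00000066257, chr16:59344675-59349246) follow on the minus strand, at distances of 5792, 9756 and 13536 bp. Each gene model in GENCODE M21 has 2 exons, with the coding sequence in the second exon. RefSeq lists them under the older names MOR182-5, MOR182-3, MOR182-11P and MOR182-4, and 10 ORs of the tables carry a MOR182 name. Translated coding sequences of *Olfr204*, *Olfr205* and *Olfr206* were close to each other, with 91.8% identical residues between *Olfr204* and *Olfr205*, 90.2% between *Olfr204* and *Olfr206*, and 88.2% between *Olfr205* and *Olfr206*. *Olfr203* stood farther off, at 78.7%, 77.7% and 76.1% identity to *Olfr204*, *Olfr205* and *Olfr206*. Its closest relative was *Olfr194*, at 94.8% identity (290 of 306 residues), which lies 177812 bp before the cluster.

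The stretch of the coding sequences that separates *Olfr203* most from the others is shown because *Olfr203* was also the member whose readout differed. These 90 bases are coding positions 243 to 332 and correspond in GRCm38 to chr16:59303397-59303486 (plus strand) for *Olfr203* and, on the minus strand, to chr16:59315074-59315163 for *Olfr204*, chr16:59329176-59329265 for *Olfr205* and chr16:59345368-59345457 for *Olfr206*. Capitals mark the 26 positions at which *Olfr203* differs from the other members while these are alike.
Olfr203: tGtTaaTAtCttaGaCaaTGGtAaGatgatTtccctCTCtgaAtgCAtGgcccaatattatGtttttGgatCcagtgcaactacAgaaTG
Olfr204: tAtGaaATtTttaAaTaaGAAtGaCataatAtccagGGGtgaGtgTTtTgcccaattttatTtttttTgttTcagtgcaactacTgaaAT
Olfr205: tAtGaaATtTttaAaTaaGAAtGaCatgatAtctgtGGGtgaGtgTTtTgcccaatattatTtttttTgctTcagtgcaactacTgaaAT
Olfr206: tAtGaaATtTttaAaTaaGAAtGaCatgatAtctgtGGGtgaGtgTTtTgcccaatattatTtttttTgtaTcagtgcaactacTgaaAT

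Over the 915 aligned coding positions, all 4 genes were alike at 697, and *Olfr203* differed alone at 111, against 12 for *Olfr204*, 19 for *Olfr205* and 33 for *Olfr206*. A second stretch, coding positions 427 to 516, holds the most positions, among stretches of this length, at which the 3 closely related genes are not all alike. It corresponds to chr16:59314890-59314979 for *Olfr204*, chr16:59328992-59329081 for *Olfr205* and chr16:59345184-59345273 for *Olfr206*, each on the minus strand. Capitals mark the 19 positions at which the 3 are not all alike. *Olfr205* stands apart at the first of these and *Olfr206* at all the others.
Olfr204: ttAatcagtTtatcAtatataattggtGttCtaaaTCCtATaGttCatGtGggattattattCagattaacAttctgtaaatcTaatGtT
Olfr205: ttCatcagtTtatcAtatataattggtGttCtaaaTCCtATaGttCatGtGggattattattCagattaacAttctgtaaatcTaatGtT
Olfr206: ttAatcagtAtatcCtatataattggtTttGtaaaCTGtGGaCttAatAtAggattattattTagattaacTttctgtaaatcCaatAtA

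Such likeness bears on the counts, since a read that fits several genes is divided among them by RSEM. Of the 50-base stretches of the *Olfr203* model, 34.6% (510 of 1472) were also found in another gene, and that gene was *Olfr194* alone. None of these stretches was shared with *Olfr204*, *Olfr205* or *Olfr206*. Those 3 shared 13.5%, 18.1% and 6.67% of their stretches with other genes, of which 257, 276 and 51 stretches lay in another of the members. Each of the 3 also shared stretches with *Olfr209*, the next OR after the cluster. Reads of *Olfr203* can thus be mistaken for reads of *Olfr194*, over the minority of its length. Reads of *Olfr204*, *Olfr205* and *Olfr206* can be mistaken for those of one another or of *Olfr209*, likewise over the minority of their length. Shared stretches of *Olfr204* lay in 492 other genes in all and those of *Olfr205* in 4, so that reads of either may also fit further genes.

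The shares of *Olfr204*, *Olfr205* and *Olfr206* were several times higher in DHB mice than in control mice, and these values are given as a description, without a test, because they served to select the genes. *Olfr205* had 390, 627 and 707 reads in the 3 DHB mice (0.465%, 0.463% and 0.496% of OR reads) against 48, 75 and 56 reads in the controls (0.0750%, 0.0618% and 0.0413%). The lowest DHB share had a 95% Wilson interval of 0.428% to 0.501%, and the highest control share one of 0.0566% to 0.0994%. The DHB mice lay close together, far from all control mice, and the estimate was an 8.63-fold rise (log2 fold change 3.11 ± 0.29, SE from edgeR, n = 3 per group).

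*Olfr206* had 253, 485 and 490 reads after DHB (0.302%, 0.358% and 0.343%) against 43, 42 and 25 in the controls (0.0672%, 0.0346% and 0.0184%), a 9.36-fold rise (log2 3.23 ± 0.35). *Olfr204* had 182, 246 and 276 reads (0.217%, 0.182% and 0.193%) against 29, 27 and 69 (0.0453%, 0.0222% and 0.0509%), a 5.38-fold rise (log2 2.43 ± 0.31). For both genes every DHB mouse lay above every control mouse. *Olfr203* had 26, 27 and 64 reads (0.0310%, 0.0199% and 0.0449%) against 11, 24 and 32 (0.0172%, 0.0198% and 0.0236%), and the groups overlapped (1.66-fold, log2 0.73 ± 0.42). With its near copy *Olfr194* counted as 1 gene, an alternative chosen after seeing the data, the log2 fold change of *Olfr203* after DHB was 0.60 ± 0.33.

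Together, *Olfr204*, *Olfr205* and *Olfr206* took 0.984%, 1.00% and 1.03% of OR reads in the DHB mice, against 0.188%, 0.119% and 0.111% in their controls and 0.0746% to 0.225% over the 48 mice outside the DHB group. In edgeR, 3 of the 4 members were among the 6 of 1064 ORs (0.564%) with an adjusted p below 0.05, a count that the choice of the genes largely fixes. The sample titles carry a prefix, 4429 for mice 1 and 2 and 4575 for mouse 3 of both arms. Within prefix 4429 the ratio of mean shares was 5.90 for *Olfr204*, 6.79 for *Olfr205*, 6.48 for *Olfr206* and 1.38 for *Olfr203*, and within prefix 4575, with 1 mouse per arm, it was 1.90 for *Olfr203* and from 3.80 (*Olfr204*) to 18.6 (*Olfr206*) for the others.

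**Figure D1:**
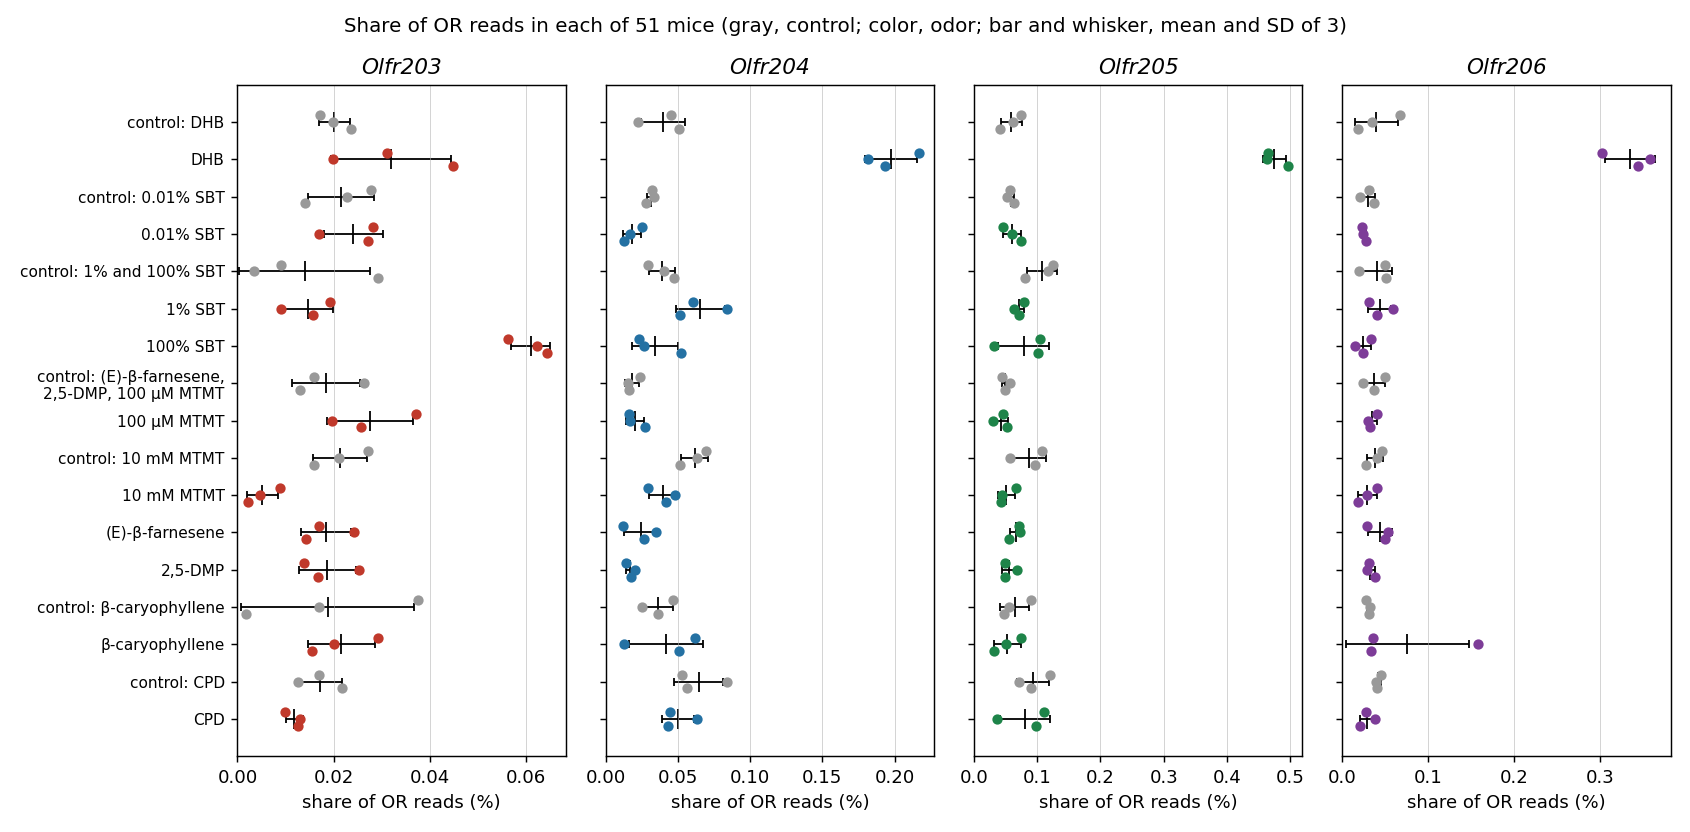
Share of OR reads (x axis, %, each panel with its own scale) of the 4 ORs in each of 51 mice, by group (y axis), with control mice in gray, odor mice in color, and the mean and SD of 3 mice as bar and whisker. *Olfr204*, *Olfr205* and *Olfr206* stand out in the DHB group, and *Olfr203* in the 100% SBT group, where its 3 mice lie between 0.0564% and 0.0643%.

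Within 500 kb of the cluster lie 22 other ORs of the tables, 21 before and 1 after. They are what remained of the locus once the ORs raised most by DHB (*Olfr204*, *Olfr205*, *Olfr206*) and the adjoining *Olfr203* had become members. Their DHB values are therefore likewise given as a description. None of the 22 was called after DHB by edgeR or DESeq2, a count that this choice largely fixes, and 2 had an unadjusted edgeR p below 0.05, against 6 called and 38 unadjusted among 1064 ORs. The median log2 fold change of the 22 was 0.17, against 0.01 over all ORs tested. *Olfr209*, the only one after the cluster and 11914 bp from it, had 125, 103 and 94 reads (0.149%, 0.0761% and 0.0659%) in DHB mice against 37, 62 and 69 (0.0578%, 0.0511% and 0.0509%) in controls. Its groups did not overlap, at a log2 fold change of 0.96 ± 0.34. Reads from stretches that *Olfr209* shares with *Olfr204*, *Olfr205* and *Olfr206* may have entered its count, and their part was not tested. Before the cluster, *Olfr202* (12088 bp away) and *Olfr201* (26249 bp away) were at log2 -0.01 ± 0.38 and 0.32 ± 0.37.

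The nearest relatives by protein sequence, *Olfr194*, *Olfr198*, *Olfr202* and *Olfr209*, are all among these neighbours and share their selection. *Olfr209* is 75.4% to 78.0% identical to *Olfr204*, *Olfr205* and *Olfr206*. *Olfr194*, the near copy of *Olfr203*, was at log2 0.41 ± 0.57 after DHB.

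In the 9 other odor comparisons, which did not enter the choice of the genes, the question was whether the members responded to anything but DHB. Of 36 pairs of a member and a comparison, 1 passed an adjusted p of 0.05 in edgeR, 1 in DESeq2, and 3 had an unadjusted edgeR p below 0.05. The call was *Olfr203* after 100% SBT, where 11.4% of all ORs tested (120 of 1050) were called. For comparison, the share of ORs called was 0.466% after 0.01% SBT, 0.863% after 1% SBT, 0.281% after 100 μM MTMT, 1.77% after (E)-β-farnesene and 0.841% after 2,5-DMP. After 10 mM MTMT, β-caryophyllene and CPD it was 0%, with 69, 51 and 40 ORs at an unadjusted p below 0.05 and 15, 0 and 1 called by DESeq2.

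*Olfr204*, *Olfr205* and *Olfr206* were called in none of their 27 pairs in edgeR or DESeq2, with 1 unadjusted edgeR p below 0.05. Their log2 fold changes ran from -0.74 to 1.42 (lowest adjusted p = 0.865). The upper end of the 95% interval exceeded 5.38-fold, the rise of *Olfr204* after DHB, in 1 of the 27 pairs, that of *Olfr206* after β-caryophyllene. That value rested on 1 mouse. *Olfr206* had 28, 158 and 32 reads after β-caryophyllene (0.0355%, 0.158% and 0.0332%) against 25, 23 and 35 in controls (0.0284%, 0.0326% and 0.0317%), for a log2 fold change of 1.42 ± 0.60 (edgeR adjusted p = 0.904), and without odor mouse 2 it was 0.21.

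**Figure D2:**
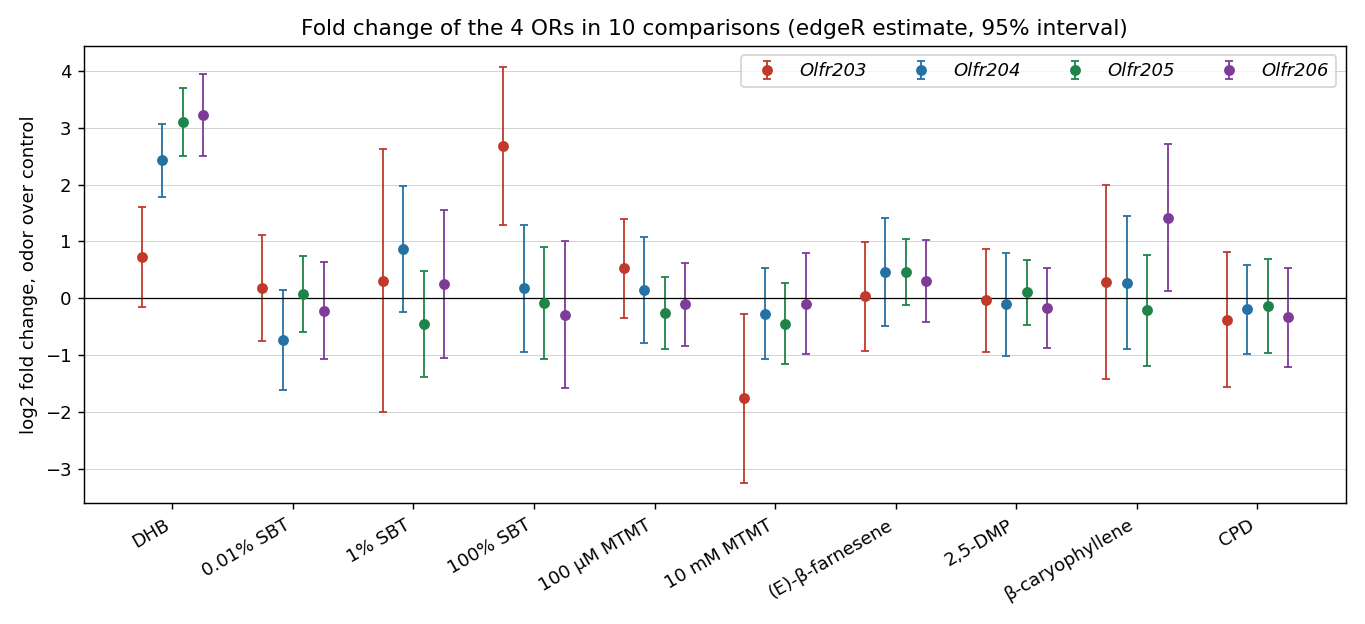
Log2 fold change of odor over control (y axis) of the 4 ORs in the 10 comparisons (x axis), with points for edgeR estimates and whiskers for 95% intervals, 3 mice per group. Outside DHB, the interval that lies highest above 0 is that of *Olfr203* after 100% SBT, at 2.68.

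*Olfr203* rose after the undiluted thiazole, while the 3 receptors raised by DHB did not pass the test there. It had 46, 65 and 37 reads after 100% SBT (0.0564%, 0.0622% and 0.0643%) against 4, 2 and 8 in the controls (0.00909%, 0.00350% and 0.0293%), a 6.43-fold rise (log2 2.68 ± 0.64, edgeR adjusted p = 0.0124, higher in 3 of 3 mice than in any control). The 95% Wilson intervals of the SBT mice were 0.0423% to 0.0752%, 0.0488% to 0.0793% and 0.0466% to 0.0886%, and those of the controls 0.00353% to 0.0234%, 0.000960% to 0.0128% and 0.0148% to 0.0578%. The 3 SBT mice also lay above the other 48 mice, whose *Olfr203* shares ran from 0.00181% to 0.0449% with a median of 0.0171%. Controls of this experiment were the shallowest of the series, with 27301 to 57154 OR reads, and control mouse 3 had the fewest.

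The size of this rise depended on single mice and on how near copies are counted. Without control mouse 3 it was 12.6-fold, and without odor mouse 3 it was 6.41-fold but no longer past the threshold (edgeR adjusted p = 0.0623). Within title prefix SerC, which holds mice 1 and 2 of both arms, the ratio of mean shares was 9.42, and within SerD, with 1 mouse per arm, it was 2.19. *Olfr194* had 10, 19 and 16 reads after 100% SBT against 14, 9 and 4 in controls (log2 0.25 ± 0.71, adjusted p = 0.904). Counted as 1 gene, an alternative chosen after seeing the data, *Olfr203* and *Olfr194* rose 3.10-fold (log2 1.63 ± 0.45, edgeR adjusted p = 0.0284).

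The other members were at log2 0.18 ± 0.52 (*Olfr204*), -0.08 ± 0.46 (*Olfr205*) and -0.29 ± 0.60 (*Olfr206*) after 100% SBT, with 95% intervals whose upper ends were 2.46-fold, 1.88-fold and 2.01-fold. A rise of 6.43-fold lay outside all 3 intervals, while the interval of *Olfr203* itself, 2.45-fold to 16.9-fold, began just below the upper end of that of *Olfr204*. To set the members against each other within a mouse, reads of *Olfr203* were divided by the summed reads of the other members, a measure chosen after seeing the data. This ratio was 34.8%, 83.3% and 36.3% in the 100% SBT mice and 4.44%, 1.98% and 16.3% in their controls, without overlap. On the log2 scale with 1 read added the means differed by 2.85 (-1.07 ± 0.70 against -3.92 ± 1.33, SD, n = 3 each). The two-sided, unpaired exact permutation test gave p = 0.1, the smallest that 3 mice against 3 allow.

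SBT also let the doses be compared. *Olfr203* had 45, 17 and 26 reads after 0.01% SBT (0.0281%, 0.0171% and 0.0272%) against 38, 23 and 11 in the controls (0.0277%, 0.0229% and 0.0141%), and 8, 6 and 10 after 1% SBT (0.0193%, 0.00904% and 0.0157%). Both groups overlapped with their controls. The log2 fold changes were 0.18 ± 0.44 at 0.01% and 0.31 ± 1.07 at 1% (SE from edgeR). At 1% the 95% interval ran from 0.249-fold to 6.15-fold, so the few reads there exclude neither a fall nor a rise. In edgeR its level at 100% was estimated at 5.01 times that at 1% (log2 difference 2.33 ± 0.69, adjusted p = 0.0462, with 7.53% of 1063 ORs called). The mean shares of *Olfr203* were 0.0609% at 100% and 0.0147% at 1%. The call was lost in each fit without a mouse of either dose, at log2 differences of 2.00 to 2.63. Between 1% and 0.01% SBT no member was called among 1082 ORs (0% called, 48 at an unadjusted edgeR p below 0.05). *Olfr204* was at a log2 difference of 1.64 ± 0.65 there (edgeR adjusted p = 1.00), each dose against its own controls.

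*Olfr204* had 25, 56 and 33 reads after 1% SBT (0.0603%, 0.0844% and 0.0518%) against 13, 23 and 13 in controls (0.0295%, 0.0402% and 0.0476%). The groups did not overlap, but the log2 fold change of 0.87 ± 0.51 did not pass (edgeR adjusted p = 0.994). Over all 36 pairs outside DHB, odor and control mice did not overlap in 8 (22.2%), 3 higher and 5 lower, and over all ORs in the same 9 comparisons this was so in 12.7%.

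*Olfr203* was at its lowest after 10 mM MTMT, with 6, 4 and 2 reads (0.00876%, 0.00470% and 0.00220%) against 14, 15 and 8 in controls (0.0271%, 0.0212% and 0.0159%). The groups did not overlap, and the log2 fold change of -1.76 ± 0.67 did not pass (edgeR adjusted p = 0.562). After 100 μM MTMT it had 39, 22 and 28 reads (0.0372%, 0.0197% and 0.0256%), and the difference between the doses, each against its own controls, was -2.31 ± 0.74 on the log2 scale (edgeR adjusted p = 0.573). No member was called for this difference, nor any of 1083 ORs (0%), of which 68 had an unadjusted p below 0.05. In the 7 comparisons other than DHB, 100% SBT and 10 mM MTMT, the log2 fold change of *Olfr203* reached at most 0.53.

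Several neighbours of the cluster were higher after 100% SBT. At that dose 10 of 22 were called higher and none lower, where 10.7% of all ORs were called higher, and their median log2 fold change was 1.27 against -0.07 over all ORs. Counts of 8 to 13 came from the alternative settings and 7 to 13 from leaving out a mouse. *Olfr209* had 265, 494 and 123 reads (0.325%, 0.473% and 0.214%) against 19, 56 and 7 (0.0432%, 0.0980% and 0.0256%), a 7.66-fold rise (log2 2.94 ± 0.48, edgeR adjusted p = 0.000931). Without control mouse 2 it was at log2 3.63, and it passed under every alternative setting tried and without any 1 mouse, while *Olfr206*, which it adjoins, did not pass in the same mice.

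On the other side, *Olfr201* rose 5.37-fold after 100% SBT (log2 2.42 ± 0.65, edgeR adjusted p = 0.0259), and *Olfr202*, which lies between it and *Olfr203*, was at log2 -0.57 ± 0.59. The call of *Olfr201* was lost without odor mouse 1 (log2 2.51, adjusted p = 0.0775 in edgeR), without odor mouse 3 (2.19, 0.146) and without TMM factors (2.03, 0.0604), and the value was 1.80 without control mouse 2 and 3.33 without control mouse 3. The other neighbours past the threshold were *Olfr175*, *Olfr177*, *Olfr178*, *Olfr180*, *Olfr181*, *Olfr186*, *Olfr196* and *Olfr199*, with log2 fold changes from 1.62 (*Olfr181*) to 3.55 (*Olfr178*). *Olfr181* lost its call without odor mouse 1 (log2 1.35) and *Olfr199* without odor mouse 3 (3.48) and in DESeq2 (3.73). All control reads of *Olfr199* came from 1 mouse (0, 19 and 0 reads), so its fold change rests on that mouse and no fold is given without it. *Olfr178* was at 4.81 without control mouse 1. The models of *Olfr180* and *Olfr181* overlap, so their reads may have been split by the counting. Of the 10 ORs with a MOR182 name, 4 were called after 100% SBT, namely *Olfr199*, *Olfr201*, *Olfr203* and *Olfr209*, and 3 by DESeq2. Over all 1050 ORs, 120 (11.4%) were called in edgeR and 138 by DESeq2. These 4 calls are those already given for *Olfr203* and its neighbours.

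*Olfr196*, 128427 bp before the cluster, was the neighbour called at every dose of SBT. It had 228, 159 and 253 reads at 0.01% (0.142%, 0.159% and 0.265%) against 81, 60 and 44, a 3.31-fold rise (log2 1.73 ± 0.32, edgeR adjusted p = 0.0111). At 1% it had 332, 679 and 376 reads (0.801%, 1.02% and 0.590%) against 7, 80 and 14 (12.4-fold, log2 3.63 ± 0.61, edgeR adjusted p = 0.0115). At 100% it had 190, 262 and 106 reads (0.233%, 0.251% and 0.184%), a 4.15-fold rise (log2 2.05 ± 0.55, edgeR adjusted p = 0.0250). Without control mouse 2, which held 80 of the control reads, the values were larger, at log2 4.76 for 1% and 3.21 for 100%. The 0.01% call was lost without control mouse 1 or 2 or odor mouse 3 (log2 1.36 to 1.73), the 1% call without odor mouse 1 (3.56), and the 100% call without any of the odor mice or control mouse 3 (1.88 to 2.22). The share of *Olfr196* was highest at 1% and that of *Olfr203* at 100%, but the difference of *Olfr196* between 100% and 1% did not pass (log2 -1.55 ± 0.48, edgeR adjusted p = 0.0609). *Olfr186* also rose after 1% SBT (log2 2.13 ± 0.44, edgeR adjusted p = 0.0368) and *Olfr193* after (E)-β-farnesene (log2 1.76 ± 0.42, edgeR adjusted p = 0.0293). The *Olfr186* call was lost without odor mouse 1 or 3 or control mouse 2 or 3 (log2 1.86 to 2.14), and the *Olfr193* call without odor or control mouse 1 or 2 (1.44 to 1.76). No neighbour was called after the other odorants.

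**Figure D3:**
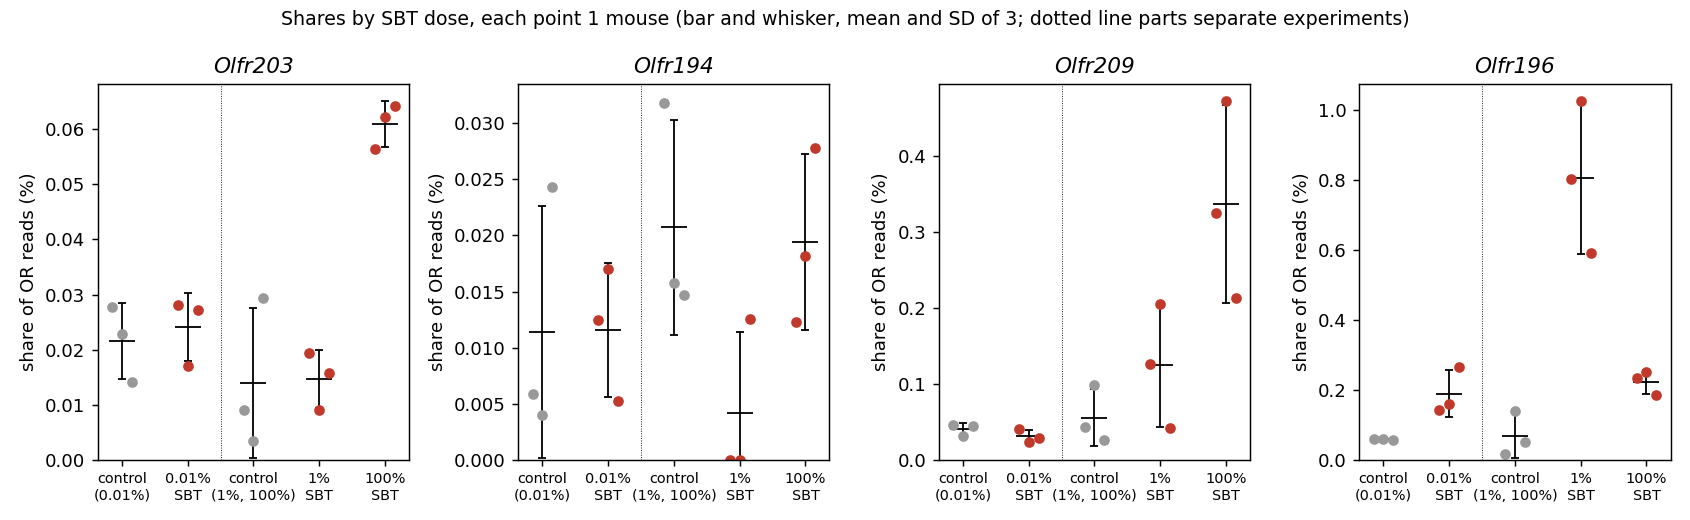
Share of OR reads (y axis, %) of *Olfr203*, its near copy *Olfr194*, and the neighbours *Olfr209* and *Olfr196* by SBT group (x axis), with 1 point per mouse, control mice in gray, and mean and SD of 3 as bar and whisker. *Olfr203* overlaps with its controls up to 1%, on few reads at 1%, and is higher at 100%, and *Olfr196* is highest at 1%, with 0.590% to 1.02%.

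**Figure D4:**
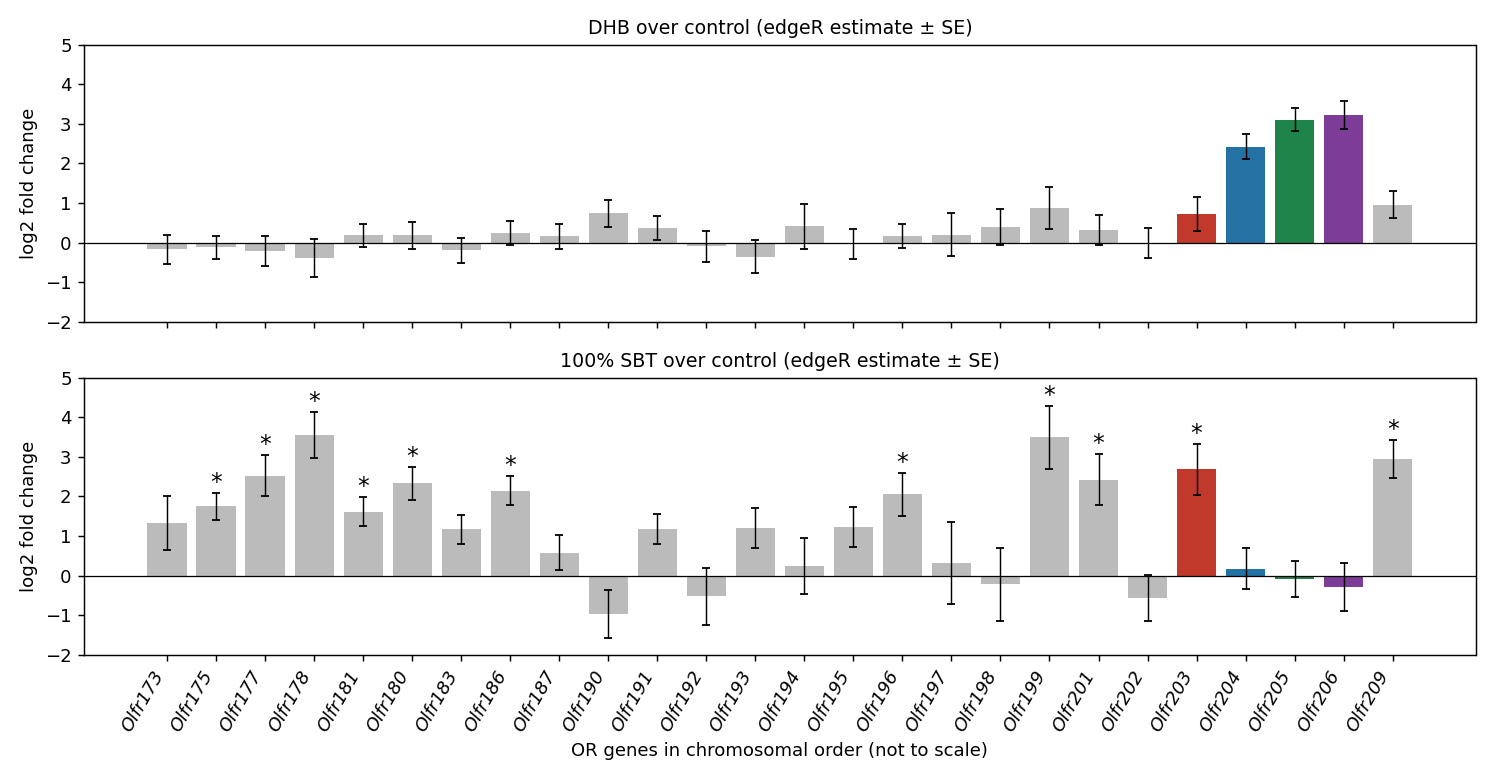
Log2 fold change with SE (y axis) after DHB (top) and 100% SBT (bottom) of the 4 members (color) and 22 neighbours (gray) in chromosomal order (x axis, not to scale), 3 mice per group; asterisks mark an adjusted p below 0.05, with no test of the members for DHB. In DHB mice 3 adjacent genes stand apart, at log2 2.43 to 3.23, and after 100% SBT *Olfr203* and 10 neighbours on both sides of the cluster pass the threshold.

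Levels without odor were compared in the 18 control mice outside the DHB experiment. Per kb of exon in the gene model and per 100000 OR reads, *Olfr205* was highest, with a median of 40.9 (27.1 to 75.5), followed by *Olfr206* with 33.0 (17.1 to 45.5), *Olfr203* with 11.2 (1.19 to 24.6) and *Olfr204* with 7.11 (2.83 to 15.6). *Olfr205* exceeded *Olfr203* and *Olfr204* in 18 of 18 mice, by 1.98 ± 1.04 and 2.61 ± 0.59 on the log2 scale (SD, two-sided permutation test by sign change, adjusted p = 3e-05 each over 6 pairs). It exceeded *Olfr206* in 15 of 18 mice, by 0.47 ± 0.60 (permutation test, adjusted p = 0.0033). Signs were changed mouse by mouse, without regard to the control group. The p-values of levels per kb, here and in the next paragraph, thus do not cover spread between control groups.

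The places of the lower members depended on the length used. With exon lengths of 1521, 5371, 1654 and 1128 bp for *Olfr203* to *Olfr206*, *Olfr203* lay above *Olfr204* in 15 of 18 mice (log2 0.63 ± 1.09, permutation test, adjusted p = 0.026, lost at 0.51 without the controls of 0.01% SBT and at 0.40 without those shared by (E)-β-farnesene, 2,5-DMP and 100 μM MTMT) and *Olfr206* above *Olfr204* in all (2.14 ± 0.69). With the coding lengths, which are 915 or 918 bp for each, *Olfr204* lay above *Olfr203* in 17 of 18 mice by 1.19, and *Olfr204* and *Olfr206* did not differ beyond their spread (0.11 ± 0.69, permutation test, adjusted p = 0.49). *Olfr205* was highest with either length. In the DHB mice, per kb of exon and per 100000 OR reads, *Olfr205* was at 281, 280 and 300 and *Olfr206* at 268, 318 and 305, so that neither was above the other in all 3 mice, while *Olfr204* was at 40.4, 33.8 and 36.0 and *Olfr203* at 20.4, 13.1 and 29.5.

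**Figure D5:**
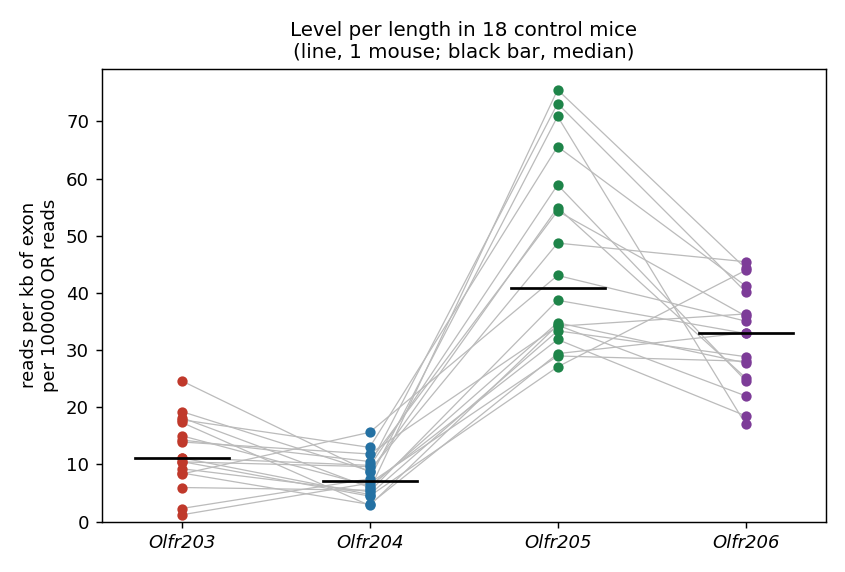
Reads per kb of exon per 100000 OR reads (y axis) of the 4 ORs (x axis) in 18 control mice outside the DHB experiment, with 1 line per mouse and the median as a black bar. *Olfr205* lies above *Olfr203* and *Olfr204* in every mouse.

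Among the 6 control groups outside DHB, any difference of a member between experiments was tested without odor. None of the 4 was called in edgeR, where 2.58% of 1085 ORs were, and 2 of them, *Olfr204* and *Olfr205*, had an unadjusted p below 0.05. *Olfr204* came closest (adjusted p = 0.0513) and was called under 3 other settings (lowest adjusted p = 0.0027) and without CPD control mouse 1 or any 1 of the 3 controls of 1% and 100% SBT. Its control shares averaged 0.0644% ± 0.0169 (SD, n = 3) in the CPD experiment and 0.0617% ± 0.00918 in the 10 mM MTMT experiment, against 0.0185% ± 0.00481 in the controls shared by (E)-β-farnesene, 2,5-DMP and 100 μM MTMT. The shared controls lay below all mice of both other groups, which overlapped with each other, so a level of *Olfr204* compared across experiments carries this spread. Those 2 groups both carry the title prefixes 3046 and 3134 and belong to odorants diluted in ethanol, and the shared controls carry 4331. Experiment, title prefix and diluent cannot be told apart here. For *Olfr203* and *Olfr206* the adjusted p was 0.976 and 0.979.

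Over the 17 group means, on the scale of log2 reads per 100000 OR reads with 5 added, *Olfr205* went with *Olfr204* (Pearson r = 0.84) and with *Olfr206* (r = 0.86), and without the DHB group the values were 0.63 and 0.06. *Olfr203* was at r = 0.01 to 0.20 with the others, and at -0.27 to -0.09 without DHB. These are descriptions over groups that partly share control mice. Of 936 other ORs with at least 10 reads in each control group, those most like the mean of the 4 members were *Olfr46* (r = 0.72), *Olfr110* (r = 0.65), *Olfr1426* (r = 0.58), *Olfr1353* (r = 0.58) and *Olfr832* (r = 0.54). Without the DHB group these values were 0.65, 0.38, 0.48, 0.29 and 0.46. After DHB their levels relative to control were 2.56-fold (*Olfr46*), 2.44-fold (*Olfr110*), 1.27-fold (*Olfr1426*), 5.91-fold (*Olfr1353*) and 1.17-fold (*Olfr832*). The DHB group is 1 of the 17 points by which these 5 were picked. Their DHB values are therefore given as a description, without a test.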

How the data were processed

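Whole olfactory mucosa was subjected to pS6-IP-Seq, and reads of 50 or 75 bases were aligned by the authors with STAR to GRCm38.p6 (GENCODE M25, 1 gene model deleted, reads with up to 10 positions kept) and quantified with RSEM. The expected counts were deposited by the authors as whole numbers, without normalization, for 1117 intact OR genes, beside columns of their own comparisons (fold changes and p-values), which were not used. In 1 further table the 6 sample columns matched no sample and were not used. Doses came from the tables' names. Reads not assigned to OR genes are not in these tables.

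The 4 genes and the lists were chosen with earlier results of these data known. Each odor group was compared with its controls in edgeR 4.0.16 (R 4.3.3): TMM factors over ORs, at least 10 reads over the 6 libraries, glmQLFit and glmQLFTest, Benjamini-Hochberg adjustment over all ORs tested, threshold 0.05. The SE is the log2 fold change divided by the square root of F. Doses were tested as a contrast of groups. Tried in its place were DESeq2 1.42.0, a block for the replicate number, plain library totals in place of TMM, at least 1 read, the likelihood ratio test, 1 fit of 51 libraries, and each library left out. The test was tested on simulated data. Wilson intervals and permutation tests used scipy 1.17.1 and numpy 2.4.6, with 100000 resamples for levels per kb, a pseudocount of 1 read and exon lengths of GENCODE M21.

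Named were the 4 members; ORs within 500 kb, by count, with those past the threshold and the nearest on each side; the 3 ORs closest to each member in protein identity; and the 5 ORs most like their mean pattern. Proteins were translated from GENCODE M21 coding sequences of 1106 ORs and aligned with Biopython 1.88. All 51 replicate pairs within groups differed beyond counting noise (chi-squared per degree of freedom 5.22 to 28.0). The study describes its mice as litter-matched, and the labels do not say whether equal replicate numbers mark a litter. Deviations from the group means of same-numbered odor and control mice correlated at 0.05 to 0.34, and all 3 numbers were above 0.1 in 6 of 10 comparisons (1% SBT, 100% SBT, 2,5-DMP, β-caryophyllene, CPD and DHB). There the numbers count as pairing the mice; the values in the report are nevertheless from the fit without the block, and the block is an alternative.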

Additional observations from a re-analysis of the deposited data

Results flagged for a closer look

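The level at 100% SBT differed from that at 1% SBT in edgeR for *Olfr203* and for 5 of its neighbours, by log2 differences of 2.33 (*Olfr203*), 2.77 (*Olfr178*), 1.93 (*Olfr180*), 1.63 (*Olfr181*), 2.66 (*Olfr199*) and 1.77 (*Olfr209*), each tested as a contrast of the 2 doses over all ORs with adjusted p from 0.00667 to 0.0462. OR reads per mouse were 57551 to 104517 at 100% and 41426 to 66366 at 1%. *Olfr203* lost this call in each fit without a mouse of either dose. *Olfr181* lost it without 100% mouse 1 or 1% mouse 3 (log2 1.35 and 1.39), *Olfr199* in each fit without a mouse of either dose (2.43 to 2.85), and *Olfr209* without 100% mouse 1 or 2 or 1% mouse 1 or 3 (1.28 to 1.87). *Olfr178* was at 3.43 without 1% mouse 2. The part of depth in these differences was not tested.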

How the results depend on the processing

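The rises of *Olfr204*, *Olfr205* and *Olfr206* after DHB kept their direction under all alternatives, at log2 2.15 to 2.69, 2.88 to 3.26 and 2.84 to 3.71 when 1 mouse was left out, and *Olfr203* at 0.40 to 0.99. With the replicate number as a block the log2 fold changes after DHB were 0.68, 2.47, 3.13 and 3.32 for *Olfr203* to *Olfr206*, that of *Olfr203* after 100% SBT was 2.83 with 1 member called, and the difference between 100% and 1% SBT was 2.44. Under the block 12 neighbours in place of 10 were called after 100% SBT, the neighbour *Olfr193* lost its call after (E)-β-farnesene (adjusted p = 0.0819), and no other call of a member or neighbour named in the report was lost. Library totals without TMM factors moved the median log2 fold change of all ORs from -0.07 to -0.47 after 100% SBT and from 0.03 to -0.28 after 10 mM MTMT, and split the calls after 100% SBT into 85 higher and 42 lower, against 112 and 8 with TMM. There *Olfr204* was at -0.21 after 100% SBT, the difference of *Olfr203* between 100% and 1% fell to 2.06 with 0 members called, and 1 member, *Olfr204*, was called among control groups; the same 1 was called with at least 1 read and with the likelihood ratio test. Leaving out 1 mouse gave 0 to 1 members called after 100% SBT (*Olfr203* at log2 2.14 to 3.65), 0 to 1 for 100% against 1% SBT (2.00 to 2.63) and 0 to 1 among control groups, and put *Olfr204* at -0.18 to 0.40 and *Olfr205* at -0.34 to 0.33 after 100% SBT. Per kb, coding length turned *Olfr203* minus *Olfr204* to -1.19 and *Olfr204* minus *Olfr206* to 0.11, and *Olfr203* minus *Olfr204* was 0.40 to 0.76 with a control group left out. *Olfr203* had 2 to 65 reads in the mice of 100% SBT and their controls, which limits its precision. Of the values and counts that answer a comparison, 307 stayed alike under an alternative, 18 lost the threshold or fell, 7 gained it and 2 reversed; of those of other single genes, 294 stayed alike, 39 lost the threshold and 4 reversed. The causes of these dependences were not tested.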
